A study of Macaca fascicularis with 6 samples.

Results

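The genes described are 10 apolipoproteins made by liver, namely APOA1, APOA2, APOA4, APOA5, APOB, APOC1, APOC2, APOC3, APOE and APOH, the protein components of plasma lipoproteins. They were measured in liver of cynomolgus macaques (Macaca fascicularis) given an LXR ligand or vehicle. All probe sets whose only annotated gene symbol was one of the 10 were taken, which gave 21 probe sets of 54675 on the array and 10 genes of the 19775 that had a probe set with 1 symbol. All 21 were bright enough to be tested, among 27304 probe sets tested in all. A further 2 probe sets carried APOC2 together with other symbols and were left out. All 10 symbols are also those of protein-coding genes in the macaque RefSeq annotation (T2T-MFA8v1.1), from which only names and gene order were taken.

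Total RNA from whole liver of 3 animals given the ligand and of 3 animals given vehicle had been read on Affymetrix arrays, with an array for each animal. The titles of the ligand arrays include "GW", and the sources used here did not give the ligand's identity, its dose, the length of treatment or the animals' age. The arrays carry probes designed against human transcripts, so sequence differences between human and macaque can lower a probe set's signal.

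LXR, the liver X receptor, is a nuclear receptor that binds oxidised cholesterol and, paired with RXR, switches on genes that move cholesterol out of cells. Apolipoproteins hold lipoprotein particles together, steer them to receptors and turn lipases on or off. In human and mouse cells APOE and its neighbours APOC1 and APOC2 are known as LXR targets in macrophages, whereas most plasma apolipoproteins come from hepatocytes, where HNF4A and other nuclear receptors drive their genes.

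As deposited, the arrays shared a common trimmed mean. Their median signals, in arbitrary MAS5 units, were 129 to 139 for the ligand and 111 to 139 for vehicle. On the first principal component of the tested probe sets, with 23.0% of the variance, ligand array 1 lay at -89.8 and the other 5 arrays at 0.632 to 36.8. The known LXR target SREBF1, a factor that drives fatty acid synthesis, had signals of 3826, 1289 and 3450 on ligand arrays 1 to 3, against 337, 408 and 541 on vehicle arrays 1 to 3. ABCG1, a cholesterol efflux transporter, had 940, 746 and 911 with the ligand, against 297, 356 and 362 with vehicle. Both genes thus had groups that did not overlap, although neither passed limma's test adjusted over all probe sets (adjusted p = 0.370 and 0.387). The hepatocyte markers were bright on all 6 arrays, with a lowest signal of 3605 among the 10 measured, and their summed signal was 629195 to 671441 with the ligand and 574371 to 664448 with vehicle. RNA quality, read as the log2 ratio of the 3′ to the 5′ control probe sets, was 1.17 to 2.05 with the ligand and 0.99 to 1.70 with vehicle for GAPDH. For ACTB it was 2.62 to 4.0 with the ligand and 2.15 to 3.06 with vehicle. Ligand array 3 had the highest ratio of the 6 arrays for both controls, 2.05 for GAPDH and 4.0 for ACTB. Both group differences missed the threshold in an exact two-sided permutation test (p = 0.60 and 0.40, both 0.60 after Benjamini-Hochberg adjustment, where 0.10 is the smallest p that 3 against 3 arrays can give).

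None of the 21 apolipoprotein probe sets separated the ligand animals from the vehicle animals. After Benjamini-Hochberg adjustment of limma's p over the 27304 probe sets tested, 0 of the 21 passed, against 0% of all probe sets, and the adjusted p ran from 0.880 to 0.987. At an unadjusted p under 0.05, 0 of the 21 were called, against 5.58% of all probe sets tested. Groups that did not overlap were found in 0 of the 21, against 11% of all probe sets. The log2 difference, ligand minus vehicle on log2(signal + 16), was above 0 for 10 probe sets and below 0 for 11, against 50.3% above 0 over all probe sets. Its median over the 21 was -0.030, with a range from -0.92 for APOA4 to 0.75 for an APOE probe set, and its median over all tested probe sets was 0.0032. These are counts over 21 probe sets, several of which read the same transcript.

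How closely the arrays bound each difference varied with the gene. The SE of the log2 difference was 0.14 to 0.60 over the 21 probe sets, with a median of 0.24, against a median of 0.35 over all tested. For 16 of the 21 the 95% interval of the difference lay within -1 to 1 (76.2%), against 44.7% of all probe sets tested, so a log2 change of 1 or more in either direction lay outside the interval for those 16. The 5 probe sets with wider intervals were those of APOA4, APOE (203382_s_at), APOC1 (204416_x_at), APOC3 (231587_at) and APOH (231359_at). Among probe sets with a mean signal of 20000 or more, the median within-group SD was 0.17 on the log2 scale for the 10 apolipoprotein probe sets and 0.20 for the 469 others. At that brightness the interval lay within -1 to 1 for 9 of the 10 apolipoprotein probe sets and for 429 of the 469 others (91.5%). In bulk tissue, fewer cells of a type and less RNA per cell cannot be told apart.

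**Figure D1:**
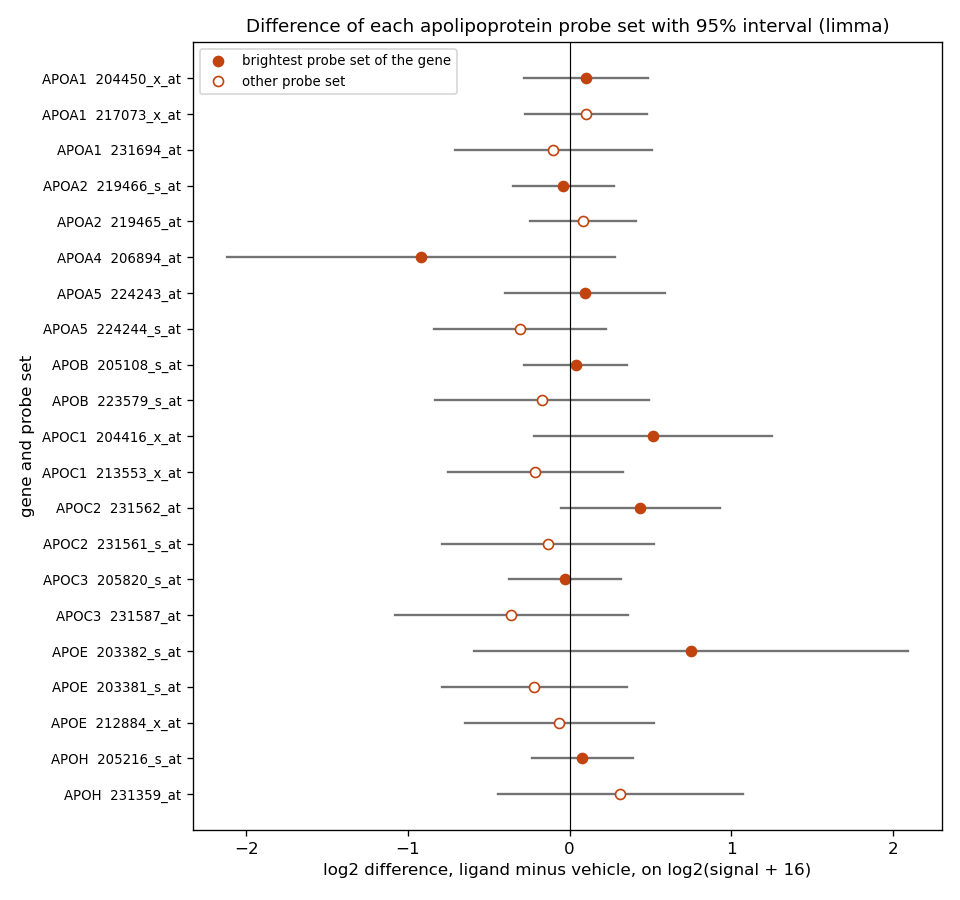
Log2 difference (ligand minus vehicle, x axis, on log2(signal + 16)) of each of the 21 probe sets, named on the y axis, with its 95% interval from limma over 3 arrays per group. Filled points are the brightest probe set of each gene and open points the others. Every interval crosses 0, and the widest belong to APOE 203382_s_at and to APOA4.

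APOA1, the main protein of high-density lipoprotein (HDL) and the acceptor of cholesterol exported by ABCA1, had similar mean signals in both groups. On the probe set 204450_x_at its signals were 132319, 104303 and 117051 on ligand arrays 1 to 3, against 92516, 131858 and 107598 on vehicle arrays 1 to 3. The groups overlapped, with the highest value on ligand array 1 and the lowest on vehicle array 1. The means were 117891 ± 14027 with the ligand and 110657 ± 19848 with vehicle (SD, n = 3 per group). The log2 difference was 0.10 ± 0.17 (SE), with a 95% interval from -0.29 to 0.49 and a limma adjusted p of 0.966. A further probe set, 217073_x_at, gave the same log2 difference to 2 decimals, 0.10 ± 0.17 (SE), and ordered the 6 arrays in the same way. The dim probe set 231694_at, at 328 to 430 with the ligand and 347 to 447 with vehicle, had a log2 difference of -0.10 ± 0.27 (SE). Without vehicle array 1 the difference on 204450_x_at was -0.022, so its sign rested on that array.

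APOA2, another structural protein of HDL, had probe sets that pointed in opposite directions by small amounts. On 219466_s_at the signals were 121487, 110720 and 128767 with the ligand, against 131402, 122745 and 116276 with vehicle, a log2 difference of -0.038 ± 0.14 (SE). On 219465_at they were 101712, 86582 and 97162 with the ligand, against 83494, 98171 and 88225 with vehicle, a log2 difference of 0.081 ± 0.15 (SE). Vehicle array 1 was the highest of the 6 arrays on the first of these probe sets and the lowest on the other. Both intervals were narrow, from -0.35 to 0.28 and from -0.25 to 0.41.

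APOB is the scaffold of very low-density and low-density lipoproteins, a single copy of which stays with each particle for life. Its bright probe set, 205108_s_at, read 136779, 115486 and 120484 with the ligand, against 118164, 128912 and 115807 with vehicle. Ligand array 1 was the highest and ligand array 2 the lowest, so the ligand group spanned the whole range of the vehicle group. This left a log2 difference of 0.037 ± 0.14 (SE), with a 95% interval from -0.28 to 0.35. The dim probe set 223579_s_at read 366, 324 and 506 with the ligand, against 411, 566 and 374 with vehicle, a log2 difference of -0.17 ± 0.30 (SE).

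APOC2, APOC3, APOA5 and APOC1 tune the removal of triglyceride and of remnant particles from plasma. APOC2 is the cofactor that lipoprotein lipase needs, and its probe set 231562_at had the smallest unadjusted p of the family, 0.0767 in limma. Its signals were 6805, 7238 and 6552 with the ligand, against 5012, 6747 and 3846 with vehicle. Only vehicle array 2 reached into the range of the ligand arrays. The means were 6865 ± 347 with the ligand and 5202 ± 1460 with vehicle (SD, n = 3 per group). The log2 difference was 0.44 ± 0.22 (SE), with a 95% interval from -0.056 to 0.93 and a limma adjusted p of 0.880. The dimmer APOC2 probe set 231561_s_at did not follow it, with 483, 739 and 682 with the ligand, against 487, 863 and 770 with vehicle, a log2 difference of -0.13 ± 0.30 (SE). Without vehicle array 3 the difference of 231562_at was 0.24.

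APOC3, an inhibitor of lipoprotein lipase and of remnant uptake, had 50715, 62181 and 48647 on 205820_s_at with the ligand, against 55261, 56305.5 and 52431 with vehicle. The 3 vehicle arrays lay between the lowest and the highest ligand array. The ligand minus vehicle difference was -0.030 ± 0.16 on the log2 scale (SE), with a 95% interval from -0.38 to 0.32. On the dim probe set 231587_at, with 352, 306 and 389 with the ligand and 403, 329 and 687 with vehicle, it was -0.36 ± 0.32 (SE), and -0.065 without vehicle array 3.

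APOA5, which promotes the action of lipoprotein lipase, gave differing signs on its pair of probe sets. On 224243_at the signals were 36465, 34507 and 29166 with the ligand, against 43042, 29732 and 23456.5 with vehicle. The vehicle arrays held both the highest and the lowest value, and the log2 difference was 0.097 ± 0.22 (SE). On 224244_s_at the signals were 15941, 20783 and 13030 with the ligand, against 25163, 22005 and 14776 with vehicle, a log2 difference of -0.31 ± 0.24 (SE) with a 95% interval from -0.84 to 0.23. Both probe sets read vehicle array 1 highest.

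APOC1, which inhibits the cholesteryl ester transfer protein and hinders particle uptake, gave conflicting signs on its pair of probe sets. On 204416_x_at it had 3115, 3674 and 4104 with the ligand, against 1567, 2300 and 4427 with vehicle. The vehicle arrays were spread 2.83-fold, with array 1 the lowest and array 3 the highest of all 6. Its log2 difference was 0.52 ± 0.33 (SE), with a 95% interval from -0.22 to 1.25 and a limma adjusted p of 0.895. On 213553_x_at it had 1580, 2254 and 2703 with the ligand, against 2557, 2111 and 2776 with vehicle, a log2 difference of -0.21 ± 0.24 (SE). The ending x_at marks probe sets with probes that may also match other transcripts. Without vehicle array 3 the difference on 204416_x_at was 0.92 ± 0.26 (SE), and without vehicle array 1 it was 0.18.

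APOE, the ligand by which remnant particles bind the low-density lipoprotein receptor, is where a single array decided the value. On 203382_s_at its signals were 128135, 17365 and 19218 on ligand arrays 1 to 3, against 22463, 19751.5 and 20280 on vehicle arrays 1 to 3. Ligand array 1 stood far above the other 5 arrays, while ligand arrays 2 and 3 were below all 3 vehicle arrays. With all 6 arrays the log2 difference was 0.75 ± 0.60 (SE), with a 95% interval from -0.59 to 2.09 and a limma adjusted p of 0.923. Without ligand array 1 it was -0.19 ± 0.17 (SE), at a limma adjusted p of 0.942.

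The other APOE probe sets did not show the high value on ligand array 1. On 203381_s_at the signals were 24016.5, 25584 and 14881.5 with the ligand, against 33564, 21536 and 19914.5 with vehicle, and ligand array 1 was 0.079 above the median of the 6 arrays on the log2 scale. On 212884_x_at they were 22395, 11789 and 16940 with the ligand, against 15396, 14288 and 23201 with vehicle, and ligand array 1 was 0.47 above that median. On 203382_s_at it was 2.68 above, which is 6.40-fold. The log2 differences of the other APOE probe sets were -0.22 ± 0.26 and -0.063 ± 0.26 (SE). Since the mean over 6 arrays named 203382_s_at the brightest of the gene, a summary by brightest probe set reads APOE from the probe set that ligand array 1 raised.

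APOA4 travels on HDL and on triglyceride-rich particles, and in humans it is made mainly by the small intestine. Its only probe set, 206894_at, read 5740, 5523 and 2695 with the ligand, against 21581, 3652 and 7365 with vehicle. Vehicle array 1 stood above the other 5 arrays, and without it the groups still overlapped. The means were 4653 ± 1699 with the ligand and 10866 ± 9463 with vehicle (SD, n = 3 per group). The log2 difference was -0.92 ± 0.54 (SE), with a 95% interval from -2.12 to 0.28 and a limma adjusted p of 0.895, and it was -0.24 without vehicle array 1. HBB, the beta chain of haemoglobin and a marker of blood cells, read 865, 609 and 600 on ligand arrays 1 to 3, against 11085, 1255 and 828 on vehicle arrays 1 to 3, so it too was highest on vehicle array 1. Of the other 3 HBB probe sets 2 were also highest on vehicle array 1, and the remaining one was highest on vehicle array 3. AHSP, which encodes the haemoglobin alpha chain's chaperone and was the only other erythroid marker measured, read 150, 138 and 252 with the ligand, against 134, 426 and 156 with vehicle, so it was lowest on vehicle array 1. Of the 5 enterocyte markers 2 were measured, and their summed signal was 1431 to 2243 on the ligand arrays, against 1384, 2680 and 1428 on vehicle arrays 1 to 3. The part of blood in the APOA4 value was not tested.

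APOH, a phospholipid-binding plasma glycoprotein found on lipoproteins and known for its part in clotting, gave the highest signal on each of the 6 arrays, which does not rank its RNA against that of other genes. Its probe set 205216_s_at read 236931, 211763 and 232631 with the ligand, against 198094, 237196 and 210649 with vehicle. The groups overlapped almost fully, with means of 227108 ± 13462 with the ligand and 215313 ± 19964 with vehicle (SD, n = 3 per group). The log2 difference was 0.079 ± 0.14 (SE), with a 95% interval from -0.23 to 0.39. The dim probe set 231359_at read 938, 979 and 862 with the ligand, against 488, 1313 and 634 with vehicle, so that the 3 ligand arrays lay within the range of the vehicle arrays. Its log2 difference was 0.31 ± 0.34 (SE).

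**Figure D2:**
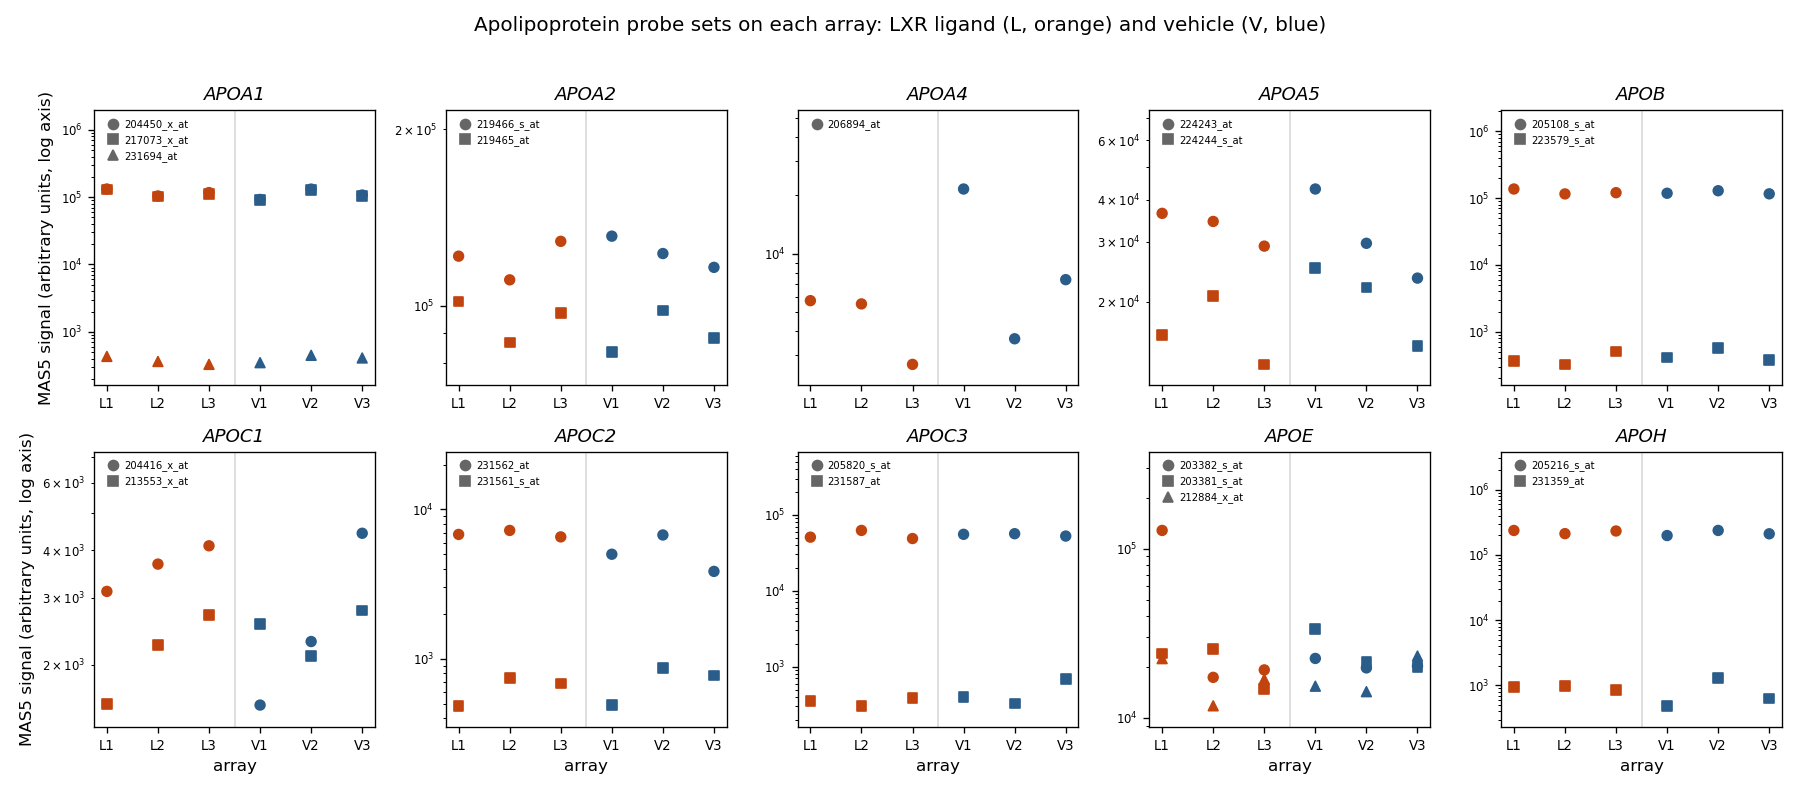
MAS5 signal (y axis, arbitrary units, log scale, a scale of its own in each panel) of every probe set of the 10 genes on ligand arrays L1 to L3 (orange) and vehicle arrays V1 to V3 (blue), 1 point per animal and a marker shape per probe set. In each panel the groups overlap. APOE 203382_s_at on L1 (128135) and APOA4 on V1 (21581) lie apart from the other 5 arrays.

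Single arrays thus bore on some members and hardly on others. For each probe set the array farthest from the median of the 6 was found. It was vehicle array 1 for 6 of the 21 probe sets (28.6%, against 17.2% of all tested), ligand array 1 for 5 (23.8%, against 19.3%) and vehicle array 3 for 4 (19.0%, against 15.1%). The remaining 6 were ligand array 3 for 3 probe sets, ligand array 2 for 2 and vehicle array 2 for 1. With 21 probe sets these counts are small, and several of them read the same transcript. A distance as large as that of APOE 203382_s_at was reached by 270 of the 27304 tested probe sets (0.989%), in 63 of them on ligand array 1. A gap that large between the farthest and the next farthest array, 2.47 on the log2 scale, was reached by 61 probe sets (0.223%). For APOA4 the distance of vehicle array 1 was 1.94, reached by 6.88% of tested probe sets. For the bright probe sets of APOA1, APOA2, APOB, APOC3 and APOH no array was farther than 0.28 from the median, and 93.8% or more of all tested probe sets had an array at least as far.

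Leaving out each array in turn moved the sign of the log2 difference for 11 of the 21 probe sets and left it the same for the other 10. No apolipoprotein probe set passed limma's test adjusted over all probe sets in any of these 6 fits. At an unadjusted p under 0.05, 3 of the 21 were called without vehicle array 2 (5.41% of all tested), namely APOA4 at -1.51, APOC2 231562_at at 0.64 and APOH 231359_at at 0.72. Without vehicle array 3, 2 were called (5.7% of all tested), APOC1 204416_x_at at 0.92 and APOA5 224244_s_at at -0.53, and 0 were called without ligand array 1, 2 or 3 (5.46%, 5.68% and 4.98% of all tested) or vehicle array 1 (5%). Groups that did not overlap appeared in 5 of the 21 without vehicle array 2 (20.8% of all tested). They appeared in 1, 1 and 2 without ligand arrays 1, 2 and 3 (20.9%, 21.7% and 20.5% of all tested), and in 1 and 2 without vehicle arrays 1 and 3 (20.9% and 21.1%). Without ligand array 1, that 1 was APOE 203382_s_at, lower with the ligand.

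**Figure D3:**
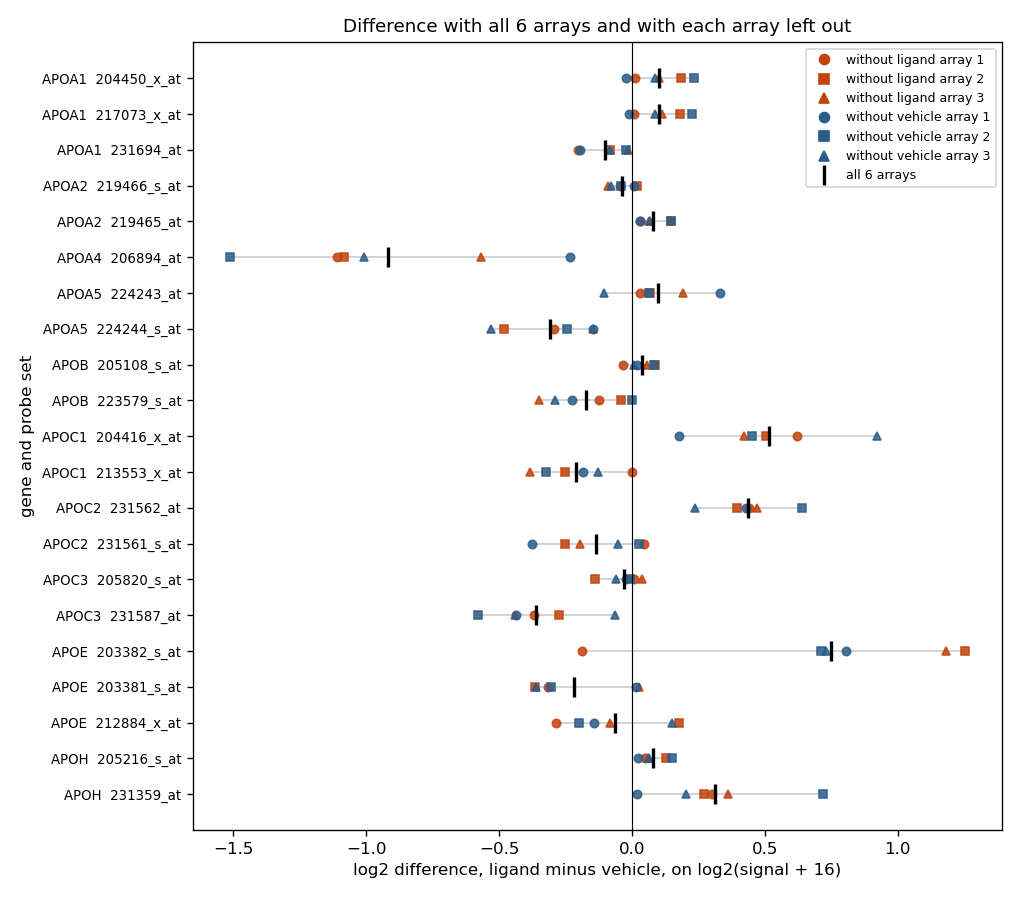
Log2 difference (ligand minus vehicle, x axis, on log2(signal + 16)) of each of the 21 probe sets with all 6 arrays (black bar) and with each array left out (coloured markers, orange for ligand arrays and blue for vehicle arrays). APOE 203382_s_at is at -0.19 without ligand array 1 and at 0.71 to 1.25 without each other array. APOA4 is at -0.24 without vehicle array 1 and at -1.51 without vehicle array 2.

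Several of the brightest members shared small shifts from array to array, and others did not. In APOA1 204450_x_at, APOA1 217073_x_at and APOA2 219465_at the order of the 6 arrays was the same, from ligand array 1 at the top through vehicle array 2, ligand array 3, vehicle array 3 and ligand array 2 to vehicle array 1 at the bottom. APOH 205216_s_at also had vehicle array 1 lowest, and APOB 205108_s_at also had ligand array 1 highest. APOA2 219466_s_at was highest on vehicle array 1, and APOC3 205820_s_at was highest on ligand array 2, so 2 of the 7 apolipoprotein probe sets with a mean signal of 50000 or more had neither ligand array 1 highest nor vehicle array 1 lowest. Over those 7 the median distance from the probe set's own median, on the log2 scale, was 0.14, -0.083 and 0.061 on ligand arrays 1 to 3, and -0.15, 0.096 and -0.061 on vehicle arrays 1 to 3. The 150 other probe sets at least as bright had 0.17, -0.0073 and -0.024 on the ligand arrays and -0.075, 0.034 and -0.022 on the vehicle arrays. The 469 others with a mean signal of 20000 or more had 0.14, 0.0074 and -0.072 on the ligand arrays and -0.0024, 0.012 and -0.040 on the vehicle arrays. The other bright probe sets thus read high on ligand array 1 at both minimums, and low on vehicle array 1 only at the minimum of 50000. The part of brightness in the differences was not tested.

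**Figure D4:**
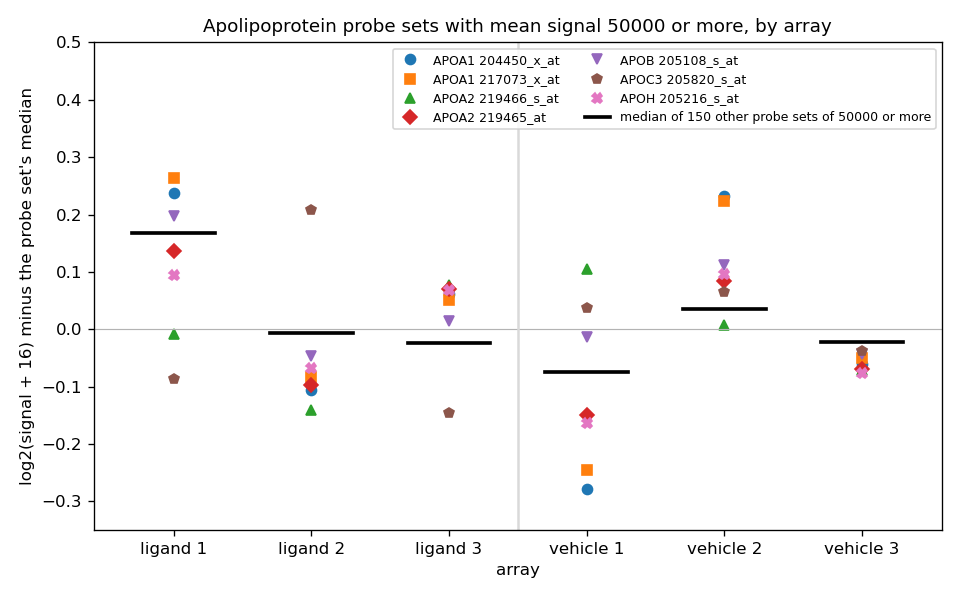
Distance of each array from the probe set's median over 6 arrays (y axis, log2(signal + 16)) for the 7 apolipoprotein probe sets with a mean signal of 50000 or more (coloured markers), on 3 ligand arrays and 3 vehicle arrays (x axis). Black bars are the median of 150 other probe sets with a mean signal of 50000 or more. On ligand array 1 the bar and 5 of the 7 markers lie above 0, and APOA2 219466_s_at and APOC3 205820_s_at lie below 0 there and above 0 on vehicle array 1.

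Probe sets of the same gene often disagreed in sign. Of the 9 genes with more than 1 probe set, 2 (APOC3 and APOH) had the same sign on all of theirs and 7 did not. Of 13 pairs of probe sets of the same gene, 9 had opposite signs and 4 the same. The brightest probe set of each gene gave 7 genes above 0 and 3 below, with a median log2 difference of 0.088, whereas the mean over a gene's probe sets gave a median of 0.027.

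In the macaque annotation 7 of the 10 genes lie in 2 clusters. APOA5, APOA4, APOC3 and APOA1 follow each other with no other protein-coding gene between them, and their brightest probe sets had log2 differences of 0.097, -0.92, -0.030 and 0.10. APOE, APOC1 and APOC2 lie near each other with 1 other protein-coding gene in each interval, and their brightest probe sets had 0.75, 0.52 and 0.44. These 3 are the largest positive differences of the 10 when each gene is read from its brightest probe set. In each of the 3 genes at least 1 other probe set was below 0. Averaged over a gene's probe sets, APOE, APOC1 and APOC2 had 0.16, 0.15 and 0.15, all below the 0.20 of APOH. The APOE value of 0.75 rests on ligand array 1.

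Macrophages also make APOE, APOC1 and APOC2, and their markers stood higher in the ligand animals. Of 12 listed macrophage and Kupffer cell markers 10 were measured, and all 10 had a log2 difference above 0, with a median of 0.64, and 5 had groups that did not overlap (11% of all tested) while 0 passed adjustment over all probe sets. Their summed signal was 20202 to 25571 with the ligand and 11744 to 15784 with vehicle, with none of them at 0. MARCO, a scavenger receptor, had 3285, 2430 and 2733 with the ligand, against 1171, 1016 and 1383 with vehicle. The part of macrophages in the APOC1, APOC2 and APOE values was not tested. Stellate and fibroblast markers summed to 31959 to 44653 with the ligand and 16373 to 25999 with vehicle, with 5 of 7 above 0. Of the 7, 2 had groups that did not overlap (11% of all tested), COL3A1 higher and COL1A1 lower with the ligand. The other COL1A1 probe sets had log2 differences of 1.64 and 1.72. Endothelial markers summed to 8472 to 11097 with the ligand and 8625 to 11051 with vehicle, with 7 of 8 above 0. The groups did not overlap for 4 of the 8 (11% of all tested), LYVE1, ENG and CDH5 higher and VWF lower. VWF, the von Willebrand clotting factor, read 157, 156 and 377 with the ligand, against 4667, 2129 and 1340 with vehicle. Without VWF, a choice made after its values were seen, the other 7 endothelial markers summed to 8316 to 10719 with the ligand and 6384 to 7365 with vehicle. Of the 10 hepatocyte markers 5 were above 0 and 5 below, with a median log2 difference of -0.00084.

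Other genes of lipoprotein biology were read from lists chosen with earlier results of these data known. Of 17 listed genes of other apolipoproteins and lipoprotein-bound proteins, 13 were measured. Of these 7 were above 0 and 6 below, with a median log2 difference of 0.0033, and 1 had an unadjusted p under 0.05 (5.58% of all tested). That gene was APOL4, an intracellular member of the apolipoprotein L family, with 26.5, 163 and 261 with the ligand, against 457, 313 and 410 with vehicle (log2 difference -1.66 ± 0.62, SE; limma adjusted p = 0.855). APOM, a carrier of sphingosine phosphate on HDL, had a log2 difference of 0.046 ± 0.16 (SE), and CLU, also known as apolipoprotein J, -0.047 ± 0.16 (SE). The other 3 CLU probe sets differed in sign, with log2 differences of -0.12, -0.40 and 0.47.

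Among 12 measured genes of lipoprotein assembly, lipid loading and remodelling, of 14 listed, 6 were above 0 and 6 below, and 3 had an unadjusted p under 0.05 (5.58% of all tested). ABCA1, which loads cholesterol onto the APOA1 protein, had 2567, 3356 and 3046 with the ligand, against 1152, 2272 and 1990 with vehicle, with groups that did not overlap. Its log2 difference was 0.77 ± 0.27 (SE) at a limma adjusted p of 0.829, beside 0.10 ± 0.17 (SE) for APOA1. PLTP and CETP, which move lipids between particles, had 0.85 ± 0.31 and 0.64 ± 0.25 (SE). MTTP, the transfer protein that lipidates the APOB protein, had -0.60 ± 0.61 (SE) on a dim probe set, beside 0.037 ± 0.14 (SE) for APOB.

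Of 6 measured genes of lipoprotein uptake, of 10 listed, 5 were above 0 and 1 had an unadjusted p under 0.05 (5.58% of all tested). That gene was MYLIP, a ubiquitin ligase for the receptors that bind APOE and APOB, at 1.36 ± 0.32 (SE) and a limma adjusted p of 0.561. Of 12 measured transcription factors of apolipoprotein genes, of 18 listed, 4 were above 0 and 8 below, with a median of -0.13, and 3 had an unadjusted p under 0.05 (5.58% of all tested). These were NR0B2, a repressor induced by bile acids, at 0.83 ± 0.30 (SE), CEBPA, a factor of hepatocyte genes, at -0.57 ± 0.22 (SE), and PPARA, the fatty acid receptor that acts on APOA1, APOA5 and APOC3, at -0.52 ± 0.21 (SE). NR1H3, which encodes LXR alpha, had 0.11 ± 0.23 (SE), and CREB3L3, known in mouse to drive Apoa4, had 0.26 ± 0.24 (SE).

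The 5 genes whose pattern over the 6 arrays was most like the mean of the 10 brightest apolipoprotein probe sets, of 13339 candidates, were LONP1, SLC1A1, TPM1, POLR2E and HDGFL2, with Pearson's r of 0.997 to 0.971 over 6 arrays. The mean they follow was 0.30 on ligand array 1 and -0.12 to 0.046 on the other 5 arrays. On ligand array 1, APOE 203382_s_at was 2.68 above its own median on the log2 scale, which the other APOE probe sets did not share. The brightest probe sets of the other genes lay -0.12 to 0.24 from theirs on that array. The mean is thus mainly the reading of a single APOE probe set on ligand array 1, rather than of the family. With 6 arrays and so many candidates, values of this size describe the closest of many and carry no test.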

How the data were processed

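Total RNA had been extracted from liver with a silica column kit and labelled with biotin, per the labels' protocols. The deposited table holds a linear intensity for each probe set, made with MAS5 per the submitters' processing notes. Its version, scaling target and filters are not given in the sources used here. The 2% trimmed mean was 499.9 on every array. No detection call was used, and a low signal may stand for an absent transcript. Gene symbols came from the platform annotation.

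Values were transformed to log2(signal + 16). The 62 control probe sets and those with a mean signal under the median of all means, 129, were left out. The remaining 27304 were fitted on all 6 arrays without covariates, two-sided, with limma 3.58.1 under R 4.3.3 (lmFit, then eBayes with an intensity trend), with Benjamini-Hochberg adjustment over all of them and a threshold of 0.05. The fit was tested on simulated data with the same spread for all probe sets and effects larger than any apolipoprotein difference. That test thus does not show how well differences of the apolipoproteins' size are found. Figures used Python 3.11.15 and matplotlib 3.10.9. Protein and promoter sequences were not analysed here. No 2 arrays shared a value among tested probe sets. With 3 animals per group, the number of arrays limits the precision.

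The members and lists were chosen with earlier results of these data known. Named were all members with every probe set, SREBF1 and ABCG1, and the 5 genes most like the members' mean. List genes were named from among the 4 smallest p of each list. Others were named for a stated role chosen after their values were seen (APOM, CLU, MTTP, NR1H3, CREB3L3). Also after values were seen, COL1A1 was named for its groups that did not overlap, and ACAA2 for passing adjustment without vehicle array 2. Lists were read from the brightest tested probe set with 1 symbol. The shared replicate numbers of the titles were checked for pairing. Deviations from group means of same-numbered arrays correlated at 0.040, -0.031 and 0.070, against -0.076 to 0.034 for differently numbered arrays. The highest correlations, 0.070 and 0.040, were thus between same-numbered arrays, but all were small. The numbers were not treated as pairs in the main fit. Alternatives were leaving out each array, the replicate block, array weights, robust estimation, no trend, a filter at the 75th percentile or none, centring on the median, quantile normalization, pseudocounts of 1 and 64, and averaging a gene's probe sets.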

Additional observations from a re-analysis of the deposited data

How the results depend on the processing

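No apolipoprotein probe set passed adjustment over all probe sets under any of the 16 alternatives to the fit. Over the whole table the count passing was 0 in every fit but 2 and ran from 0 to 1 when single arrays were left out: SREBF1 passed without ligand array 2 and ACAA2 without vehicle array 2. The count of apolipoprotein probe sets with an unadjusted p under 0.05 ran from 0 to 3 and the count with groups that did not overlap from 1 to 5 when single arrays were left out. The median log2 difference over the 10 genes was 0.0086 with quantile normalization and 0.066 with median centring. With the replicate block 0 probe sets passed in the whole table, and 1707 had an unadjusted p under 0.05, against 1523 without it. The cause of these shifts was not tested.

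Of 334 log2 differences of single probe sets under the alternatives, 316 kept their direction, 17 turned and 1, APOH 205216_s_at with quantile normalization, was exactly 0. The count kept includes alternatives that could not turn a direction. The changes of filter, no trend, robust estimation and the replicate block alter the test but leave the log2 difference itself the same. Of 9 averages over a gene's probe sets 3 turned. Quantile normalization gave APOB 205108_s_at -0.0093. Averaging a gene's probe sets gave 0.021 for APOA2, -0.11 for APOA5 and -0.068 for APOB. When single arrays were left out, the range was -0.022 to 0.23 for APOA1 204450_x_at, -0.0097 to 0.22 for APOA1 217073_x_at, -0.089 to 0.020 for APOA2 219466_s_at, -0.11 to 0.33 for APOA5 224243_at and -0.035 to 0.087 for APOB 205108_s_at. It was -0.38 to 0.0016 for APOC1 213553_x_at, -0.38 to 0.046 for APOC2 231561_s_at and -0.14 to 0.039 for APOC3 205820_s_at. For APOE it was -0.19 to 1.25 on 203382_s_at, -0.36 to 0.027 on 203381_s_at and -0.28 to 0.18 on 212884_x_at. The other 10 probe sets kept their direction in these 6 fits.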
